A study of Caenorhabditis elegans with 2 samples.

Results

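Strong ChIP-seq peaks inside autosomal coding exons numbered 625 of the 30000 peaks in the list that the authors called on both replicates together, in an experiment on the tagged protein F57A8.1. Members were chosen by the pooled signal, the authors' measure of enrichment over a control at each peak: a member ranked among the 3000 highest, and its summit, the position of the peak's maximum, lay on an autosome and inside an annotated coding exon. The summit also had to lie more than 250 bp from every gene for a tRNA, snRNA, snoRNA, miRNA, rRNA or spliced leader, and more than 500 bp from the 5′ end of every protein-coding gene. Of the 2307 autosomal peaks among the 3000 highest, 2036 met the distance to short non-coding RNA genes, and 625 of those met the remaining conditions. The same conditions below rank 3000 gave 6610 weaker coding-exon peaks, which serve as the comparison. Since signal chose the members, their signal is a description and was not tested, and the shares below carry no test of a difference.

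The study mapped the protein F57A8.1 by chromatin immunoprecipitation and sequencing (ChIP-seq) in whole Caenorhabditis elegans of both sexes, in 2 biological replicates of a single group. The worms were young adults of 65 hours, grown from larvae that were synchronised by bleaching and starved at the L1 stage. Strain OP757 carried unc-119(tm4063) and the transgene wgls757, which holds F57A8.1::TY1::EGFP::3xFLAG together with unc-119(+), and all samples shared these alleles. An antibody against GFP precipitated chromatin sonicated to between 200 and 800 bp. Peaks were called against a control that was not analysed here, the labels give no second condition, and whole animals mix all cell types. The tagged gene F57A8.1 held 9 pooled peaks, 2 of them among the 3000 highest, with a best signal of 75.6 at rank 496; none lay in a coding exon. The marker gene unc-119 held none.

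Most sequence-specific regulators bind promoters and enhancers, and peaks inside coding exons are a minority class in ChIP-seq of such proteins. Coding exons differ from introns and intergenic DNA in base composition, since codons set their letters. Cuticle collagens, a large gene family in C. elegans, are an extreme case: their chains consist of short repeats that each begin with glycine and often hold proline.

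Sequence at the summits of 7 members is printed to show how much composition differs among the highest peaks: 3 cuticle collagens, the rRNA methyltransferase fibrillarin (fib-1), the Hsp70-interacting protein homologue hip-1, the Argonaute csr-1 and the small-subunit ribosomal protein gene rps-11. Each line gives 101 bp centred on the summit, 5′ to 3′ on the coding strand, from the RefSeq genome of the WBcel235 assembly, which is ce11. Capitals mark any of 5 hexamers, namely CCACCA and CCAGGA and also GGAGCC with GGACCA and CACCAG, on either strand. These had the largest excess in members over weaker peaks and were picked for that, after the values were seen.
col-120, chrIV:9261004-9261104, minus strand: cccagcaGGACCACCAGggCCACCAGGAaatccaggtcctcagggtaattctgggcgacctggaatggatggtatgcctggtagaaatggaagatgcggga
col-2, chrIV:10084852-10084952, minus strand: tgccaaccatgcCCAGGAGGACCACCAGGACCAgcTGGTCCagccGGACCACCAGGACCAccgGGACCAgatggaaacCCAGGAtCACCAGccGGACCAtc
dpy-17, chrIII:5108143-5108243, plus strand: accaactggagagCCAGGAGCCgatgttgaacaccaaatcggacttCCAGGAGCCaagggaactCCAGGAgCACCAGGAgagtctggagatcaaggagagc
fib-1, chrV:15001518-15001618, minus strand: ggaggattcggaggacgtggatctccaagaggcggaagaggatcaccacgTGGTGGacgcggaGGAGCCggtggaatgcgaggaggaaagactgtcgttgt
hip-1, chrIII:13621845-13621945, minus strand: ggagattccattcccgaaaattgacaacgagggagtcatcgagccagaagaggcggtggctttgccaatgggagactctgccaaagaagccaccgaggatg
csr-1, chrIV:7958800-7958900, plus strand: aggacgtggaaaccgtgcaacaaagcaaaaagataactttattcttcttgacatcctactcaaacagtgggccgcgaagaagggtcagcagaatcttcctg
rps-11, chrIV:11603113-11603213, plus strand: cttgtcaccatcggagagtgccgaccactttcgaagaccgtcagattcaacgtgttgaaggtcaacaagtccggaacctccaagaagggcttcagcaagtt
The col-2 window carried 66 capital bases, dpy-17 had 32, col-120 had 19 and fib-1 had 12, while the windows of hip-1, csr-1 and rps-11 carried none of the hexamers. GC content of the col-2 window was 65.3%, against 45.5% in csr-1, so windows near the top of the list differ widely in composition.

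Pooled signal of the 625 members lay between 52.7 and 114 in the authors' units (median 58.9, quartiles 55.1 and 65.2). The 6610 weaker peaks had signals up to 52.7 (median 34.0). The last members by rank were at nurf-1, a subunit of a chromatin remodelling complex, at rank 2995, the chemoreceptor gene srh-270 at rank 2998, and F25B4.7 at rank 2999, all with a signal of 52.7. Just outside were the cuticle collagen gene sqt-3 at rank 3002 with 52.7, C10B5.1 at rank 3012 with 52.7 and the alanyl-tRNA synthetase gene aars-2 at rank 3015 with 52.7. The limit therefore runs through a continuous range of signal, with no gap. Coding exons were uncommon among the very highest peaks: among autosomal peaks away from short non-coding RNA genes, they made up 13.1% of ranks 1 to 295 (16 of 122, 95% Wilson interval 8.24 to 20.2%), 27.8% of ranks 296 to 1000, 31.4% of ranks 1001 to 2000 and 34.7% of ranks 2001 to 3000. Below rank 3000 the share stayed between 30.8 and 33.8%. Wilson intervals here and below cover counting error only.

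The 25 members with the highest pooled signal ranged from 79.8 to 114. Y34D9A.8 came first, with a pooled signal of 114 and values of 57.2 in replicate 1 and 57.1 in replicate 2; its summit at chrI:1050989 lay in the last of 5 coding exons. The germ-granule RNA helicase gene glh-1 followed with 111, with 59.8 in replicate 1 and 43.1 in replicate 2, and its summit at chrI:6855533 lay in coding exon 4 of 7. After it came hip-1 with 106, at 52 in replicate 1 and 52.1 in replicate 2, in coding exon 2 of 5. These 3 peaks had high values in both replicates.

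Other members near the top had unequal replicate values. Y43F8B.2 reached 105 in the pooled list, with 32.7 in replicate 1 and 62.8 in replicate 2. The gluconeogenic enzyme gene pck-1 had 103 at chrIII:65144, in coding exon 2 of 5, with 44.6 in replicate 1 and 59.7 in replicate 2. At fib-1 the pooled signal was 90.6, with 33.6 in replicate 1 and 58.9 in replicate 2. Replicate 2 was the higher of the pair at each of these. At csr-1, which binds germline small RNAs that pair with expressed genes, the pooled signal was 88.6, with 39.6 in replicate 1 and 45.7 in replicate 2. At the bestrophin channel gene best-18 it was 88.5, with 45.1 in replicate 1 and 45.5 in replicate 2. The gene pqn-75, for a protein rich in glutamine and asparagine by its family name, had 88.1, with 44.6 in replicate 1 and 46.2 in replicate 2. In signal units the replicates lay closer together at these than at the members before them. The lists differ in level, with a median signal of 19.05 in replicate 1 and 21.93 in replicate 2. By rank pck-1 was the closest of these, at 249 in replicate 1 and 197 in replicate 2. The ranks were 492 and 694 at csr-1, 237 and 705 at best-18 and 248 and 648 at pqn-75. Y43F8B.2 and fib-1 lay further apart by rank as well. The remaining members of the 25 included brp-1, with 89.7 in the pooled list, 43.0 in replicate 1 and 51.7 in replicate 2, and Y48G1BM.10, with 89.2, 43.1 and 50.2 in the same order. The small heat-shock protein gene sip-1 had 84, with 36.9 in replicate 1 and 58.4 in replicate 2. At idpc-1 the pooled signal was 81.6, with 36.0 in replicate 1 and 50.1 in replicate 2. All 4 had the higher value in replicate 2. By rank, brp-1 (312 and 379) and Y48G1BM.10 (308 and 445) stood higher in replicate 1's list than in replicate 2's. At nsph-3.1, which had no replicate 1 summit nearby, the replicate 2 value of 85.4 was above the pooled 84.3.

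**Figure D1:**
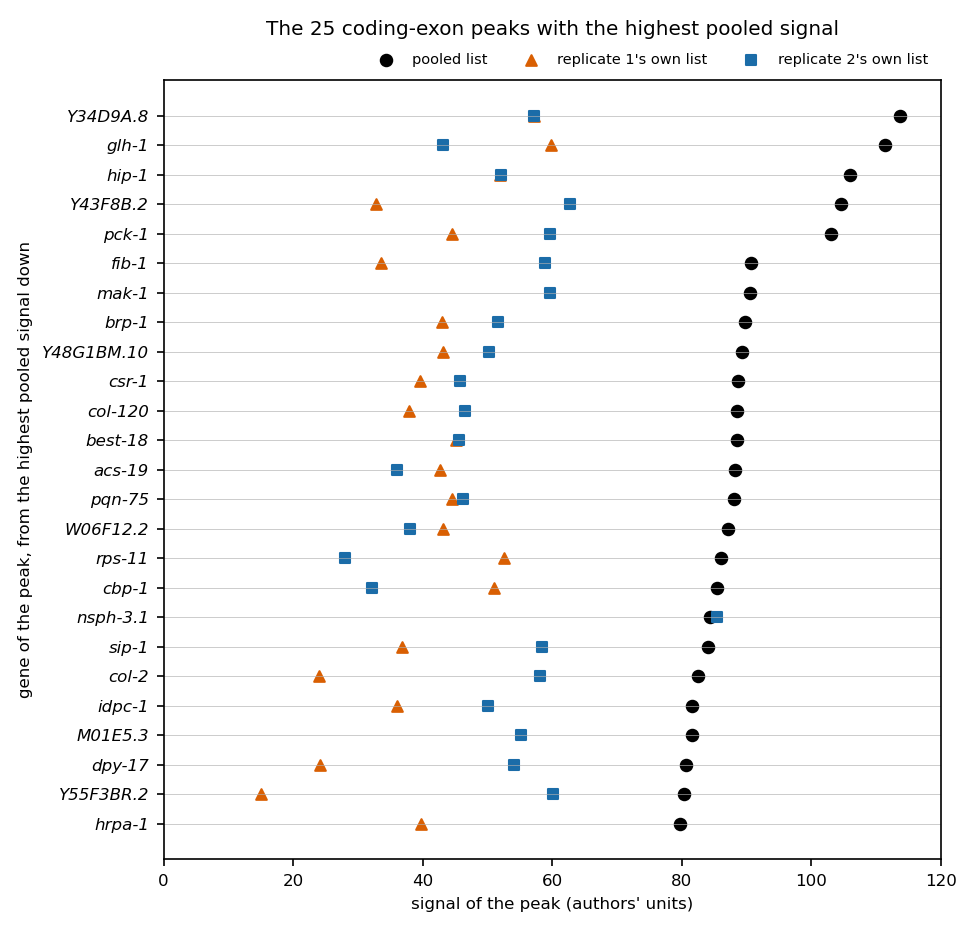
Signal of the 25 coding-exon peaks with the highest pooled signal, in the authors' units, with the pooled list as circles and each replicate's own list as triangles and squares; a missing mark means that no summit of that list lay within 100 bp. Pooled values run from 79.8 to 114, while replicate values of the same peaks spread from 15.1 to 85.4.

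Of these 25, 21 had a summit within 100 bp in both replicate lists and 16 were among the 3000 highest peaks of both. The largest rank differences were in both directions. The ribosomal protein gene rps-11 ranked 134 in replicate 1 and 6748 in replicate 2, and the gene for the histone acetyltransferase CBP-1 (cbp-1) ranked 146 and 3853 in the same order. The acyl-CoA synthetase gene acs-19, W06F12.2 and glh-1 were the next 3 with a better rank in replicate 1. In the other direction, Y55F3BR.2 ranked 27289 in replicate 1 and 190 in replicate 2. The collagen gene col-2 ranked 6517 and 225, and the collagen gene dpy-17 ranked 6396 and 303, again in that order. The next largest differences toward replicate 2 were at Y43F8B.2 and fib-1. A high place in the pooled list therefore did not require a high place in each replicate. No replicate 1 summit lay near the peaks of the kinase gene mak-1, nsph-3.1 or M01E5.3, and no replicate 2 summit near that of hrpa-1, an hnRNP A homologue. Membership of 4 of the 25 depends on which 5′ ends count as starts. The summits of hip-1, Y43F8B.2, fib-1 and csr-1 lay 331, 42, 401 and 237 bp from the 5′ end of an annotated transcript of a protein-coding gene. They would fail the distance of 500 bp if every transcript counted. Over all members this held for 57 of 625 (9.12%).

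The authors' list thresholded on the irreproducible discovery rate, a measure of rank agreement between lists, held 0.983% of all pooled peaks. It held 16 of the 625 members, those ranked 116 to 291. These are the 16 members at or above rps-11 in the plot of the 25 highest. All thresholded peaks were the highest of the pooled list, so the pooled signal that chose the members also fixed this count.

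Of the 625 members, 519 had a summit within 100 bp in replicate 1's list and 545 in replicate 2's. Both lists held 443 of them (70.9%, Wilson interval 67.2 to 74.3%), against 22.1% of all pooled peaks and 16.9% of the weaker coding-exon peaks (1115 of 6610). With summits counted as shared only within 50 bp, both lists held 45.1% of members. Replicate 1 alone held 76, replicate 2 alone held 102, and 4 were near a summit of neither. The pooled list draws on both replicates, so these shares are descriptions. Among the 3000 highest peaks of each replicate the picture was thinner: 226 members were there in replicate 1, 241 in replicate 2 and 51 in both (8.16%). By comparison, 17.4% of 593 strong promoter peaks and 12.9% of 363 strong intron peaks were among the 3000 highest of both. Promoter peaks were taken within 500 bp of a gene's 5′ end, and both classes ranked within the first 3000. At any replicate rank, both lists held 72.3% of these promoter peaks and 67.2% of these intron peaks.

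Over the 443 members found in both lists, the median signal was 26.7 in replicate 1 (range 14.5 to 59.8) and 31.2 in replicate 2 (range 17 to 62.8). The replicate values ran against each other, with a Spearman coefficient of -0.22 and Pearson's r of -0.11 across peaks. A negative Spearman coefficient was not particular to members. It was -0.15 in strong intron peaks, -0.09 in strong promoter peaks and -0.06 in weaker coding-exon peaks. Pearson's r was 0.48, 0.20 and -0.09 in the same order. Each replicate's value followed the pooled one more closely, with a Spearman coefficient of 0.41 for replicate 1 and 0.49 for replicate 2. The peaks share libraries and a selection on a pooled value that both replicates feed, and no p is given.

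**Figure D2:**
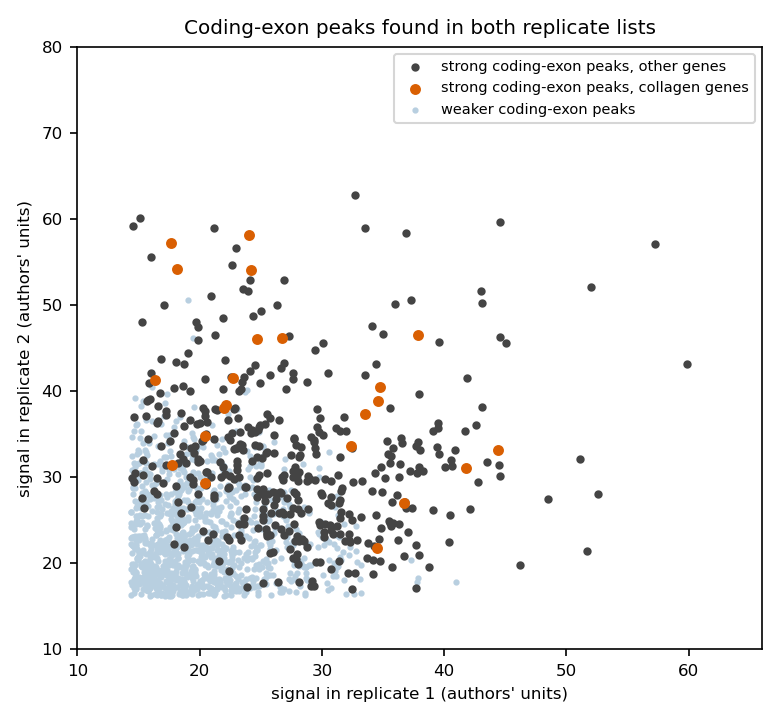
Signal in replicate 1 (horizontal) against replicate 2 (vertical), in the authors' units, for coding-exon peaks with a summit within 100 bp in both lists; dark points are the strong peaks, larger orange points those in collagen genes, pale points the weaker peaks. The strong peaks form a band above the pale cloud, with few points high in both replicates, and the Spearman coefficient over the 443 strong peaks is -0.22.

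When the same rule was applied to each replicate's own list, replicate 1 gave 683 peaks and replicate 2 gave 650. Of replicate 1's, 43 lay within 100 bp of one of replicate 2's, or 6.30% of 683 and 6.62% of 650. Genes overlapped more than positions: 137 genes held peaks in both, which is 22.1% of replicate 1's 619 genes and 22.8% of replicate 2's 601. The 2 replicates thus placed most of their strongest coding-exon peaks at different positions, and the values of single members below are to be read with that spread.

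The members lay in 583 genes, 3.74% of the 15581 autosomal protein-coding genes with any coding base far enough from starts and short RNA genes. A single member was found in 548 genes, 29 held 2, 5 held 3 and ttn-1 held 4. By chromosome, there were 111 members on I, 119 on II, 127 on III, 109 on IV and 159 on V. Per Mb of coding sequence that met the distances, chromosome III had 44.8 members and the other autosomes had 35.1 to 38.6. The central part of the chromosomes, the third by length around the midpoint, held 35.0% of members (219 of 625, Wilson interval 31.4 to 38.9%), against 41.1% of weaker peaks (interval 40.0 to 42.3%) and 40.5% of such coding bases. By chromosome the central share of members was 32.4% on I, 28.6% on II and 30.7% on III, against 40.3%, 39.4% and 41.9% of coding bases there. On IV it was 44.0% against 43.1%, and on V 39.0% against 38.6%.

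The 6 genes with at least 3 members included several for giant muscle proteins. A longer coding sequence offers more bases for a summit, and counts per gene were not set against length. That of ketn-1 is 14889 bp, against a median of 1683 bp over members. Titin (ttn-1), a giant muscle protein, held 4 members with pooled signals of 56.9, 56.9, 53.8 and 53.2, in exons 15, 34 and 45 of 59, and 29 coding-exon peaks of any rank. Kettin (ketn-1), another giant muscle protein, held 3 with 70.4, 67.1 and 58.4. In unc-22, for twitchin of the muscle thick filament, the 3 members had 54.4, 53.8 and 53.6. The members of ttn-1 and unc-22 lay below the median of all members. The presynaptic RIM-binding protein gene rimb-1 held 3 members, with 77.7, 68.3 and 55.1, whose windows had GC contents of 65.3, 67.3 and 63.4%. The histone methyltransferase gene set-16 had 53.1, 53.1 and 53.0, and cbd-1, for a chitin-binding eggshell protein, had 54.6, 53.5 and 53.2. Counting pairs in the same gene, 24 of 625 members lay within 1 kb of another member, 57 (9.12%) within 2 kb and 107 (17.1%) within 5 kb, and the median distance to the nearest other was 33.1 kb. No 101 bp summit window occurred a second time on the 6 nuclear chromosomes.

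Genes were grouped by 26 lists made from gene names, which together took 125 members and left 500 in no list. Collagens were the largest group, with 34 members in 34 genes. Here and below, collagens are the genes of this list. Collagen genes under other names are not counted in it, so values given without collagens may still include some. They made up 5.44% of members (Wilson interval 3.92 to 7.51%), against 1.12% of weaker peaks (74 of 6610, interval 0.893 to 1.40%) and 0.604% of the coding bases that met the distances. That is 348 collagen members per Mb of such collagen sequence, against 38.3 per Mb over all genes. Their median pooled signal was 64.4, between 53.0 and 88.6, and 22 of the 34 had a summit in both replicate lists. The highest were col-120, col-2, dpy-17 and col-17, cuticle collagens with pooled signals of 88.6, 82.5, 80.6 and 78.0. Replicate 1 had 37.8 at col-120, 24.1 at col-2, 24.2 at dpy-17 and 41.8 at col-17. Replicate 2 had 46.5 at col-120, 58.2 at col-2, 54.1 at dpy-17 and 31.0 at col-17. Its value was the higher at all but col-17, though col-120 ranked 626 in replicate 1 and 630 in replicate 2.

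The collagen share differed between the replicates' own lists. In replicate 2's it was 6.15% of the 650 strong peaks (40 of 650), against 1.06% of the weaker ones. In replicate 1's it was 3.22% of 683 (22 of 683, Wilson interval 2.14 to 4.83%), against 1.18% of the weaker ones. In both lists collagens took a larger share of the strong peaks than of the weaker ones. The collagen genes col-14, col-37, col-40, col-42, col-98, col-99, col-108, col-120, col-140 and col-151, 10 in all, held strong peaks in both replicates' own lists. Collagen genes are short, and with the distance to 5′ ends set above 1000 bp, 8 of 444 members (1.80%) were in collagens, against 0.319% of coding bases at that distance.

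Genes for small RNA pathways, RNA handling and the germline also held members. The argonaute and small RNA list had 12 members in 8 genes, 1.92% of members (interval 1.10 to 3.33%) against 0.590% of weaker peaks and 0.468% of coding bases. Its highest were csr-1, with members of 88.6 and 71.3, the double-stranded RNA-binding protein gene rde-4 with 71.7 and the nuclear Argonaute gene hrde-1 with 65.9. In the replicates' own lists, its share of strong peaks was 2.34% in replicate 1 and 1.85% in replicate 2, against 0.550% and 0.544% of their weaker peaks. RNA helicases and splicing factors had 8 members in 7 genes, 1.28% against 0.303% of weaker peaks and 0.277% of coding bases. This list goes by gene name and leaves out hrpa-1 (79.8) and the helicase gene glh-1. Within it the highest were prp-8, the core protein of the spliceosome, with 68.8, and the SR protein gene rsp-2 with 67.4. The SR protein gene rsp-8 with 58.0 and the DEAD-box helicase gene hel-1 with 56.7 followed. Germline and eggshell genes had 11 members in 8 genes, 1.76% against 0.832% of weaker peaks and 0.614% of coding bases. Here the intervals of strong and weaker peaks overlapped (0.986 to 3.12% and 0.640 to 1.08%). After glh-1, whose members had 111 and 66.7, came its relative glh-3 with 69.4 and the egg-surface receptor gene egg-1 with 66.6.

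Translation and housekeeping lists come next. Ribosomal protein genes, of which 45 had 8.28 kb of coding sequence at the set distances, held 4 (0.640%, interval 0.249 to 1.63%) against 0.121% of weaker peaks and 0.0512% of coding bases. They were rps-11 with 86, rpl-3 with 73.1, rpl-19 with 55.4 and rpl-7A with 54.3. Of these 4, 2 had a summit in both replicate lists, and the interval of weaker peaks reached up to 0.239%. No member lay in a translation factor, aminoacyl-tRNA synthetase, vitellogenin, vacuolar ATPase, major sperm protein or neuropeptide gene. These lists hold between 0.00186% (major sperm proteins) and 0.325% (aminoacyl-tRNA synthetases) of coding bases, and a count of 0 of 625 allows a share of up to 0.611% by the upper Wilson bound. Chaperones held 6 (0.960%, against 0.439% of weaker peaks and 0.336% of coding bases). The highest in this list, which goes by gene name and leaves out sip-1 (84.0), was the chaperonin gene cct-2 with 75.5. Then came hsp-90 with 65.7, hsp-110 with 65.0 and the DnaJ gene dnj-8 with 57.5. Glycolysis held 3 (0.480%, against 0.121% of weaker peaks and 0.117% of coding bases), in aldolase (aldo-2) with 66, enolase (enol-1) with 60.2 and hexokinase (hxk-1) with 53.7. The proteasome held 3 (0.480%, against 0.318% of weaker peaks and 0.139% of coding bases), at rpn-13, rpn-3 and rpn-5, with 64.1, 62.1 and 61.8. For chaperones, glycolysis and the proteasome the intervals of strong and weaker peaks overlapped. One member each lay in atp-1 (67.8), for an ATP synthase subunit, the tubulin gene tba-1 (62.0), the linker histone gene hil-5 (54.1), the homeobox gene ceh-83 (79.3) and, in the nucleolus list, fib-1.

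Body muscle genes held 12 members in 6 genes, 1.92% of members against 1.39% of weaker peaks and 0.910% of coding bases. The intervals of strong and weaker peaks overlapped (1.10 to 3.33% and 1.14 to 1.70%). The list includes ttn-1 and unc-22 but not ketn-1. In it, the basement membrane perlecan unc-52 had 60.5 and the obscurin homologue unc-89 had 56.9, with the others at 53.2 to 56.9. Several large gene families act in sensing, defence and regulation. Chemoreceptors had 8 members, 1.28% (interval 0.650 to 2.51%), against 3.34% of weaker peaks and 5.13% of coding bases, and the highest were srt-13 and srsx-28 with 67.7 and 67.6, srj-19 with 66.9 and srd-31 with 61.5. In the replicates' own lists chemoreceptors took 2.34% of replicate 1's strong peaks and 1.54% of replicate 2's, against 3.59% and 3.53% of the weaker ones. C-type lectins had 6 members, 0.960% against 1.53% of weaker peaks and 1.09% of coding bases, with clec-197 highest at 77.6, then clec-124, clec-80 and clec-92. Cytochrome P450 genes had 4, 0.640% against 0.454% of weaker peaks and 0.452% of coding bases, with cyp-35A2 highest at 59.8. Nuclear hormone receptors had 4, 0.640% against 1.21% and 1.40%, with nhr-142 highest at 60.6. F-box genes had 3, 0.480% against 0.847% and 1.30%, with fbxa-213 highest at 57.5. MATH and BTB genes had 2, bath-47 with 76.5 and math-46 with 55.9, or 0.320% against 0.197% and 0.388%. For these 5 families the intervals of strong and weaker peaks overlapped.

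**Figure D3:**
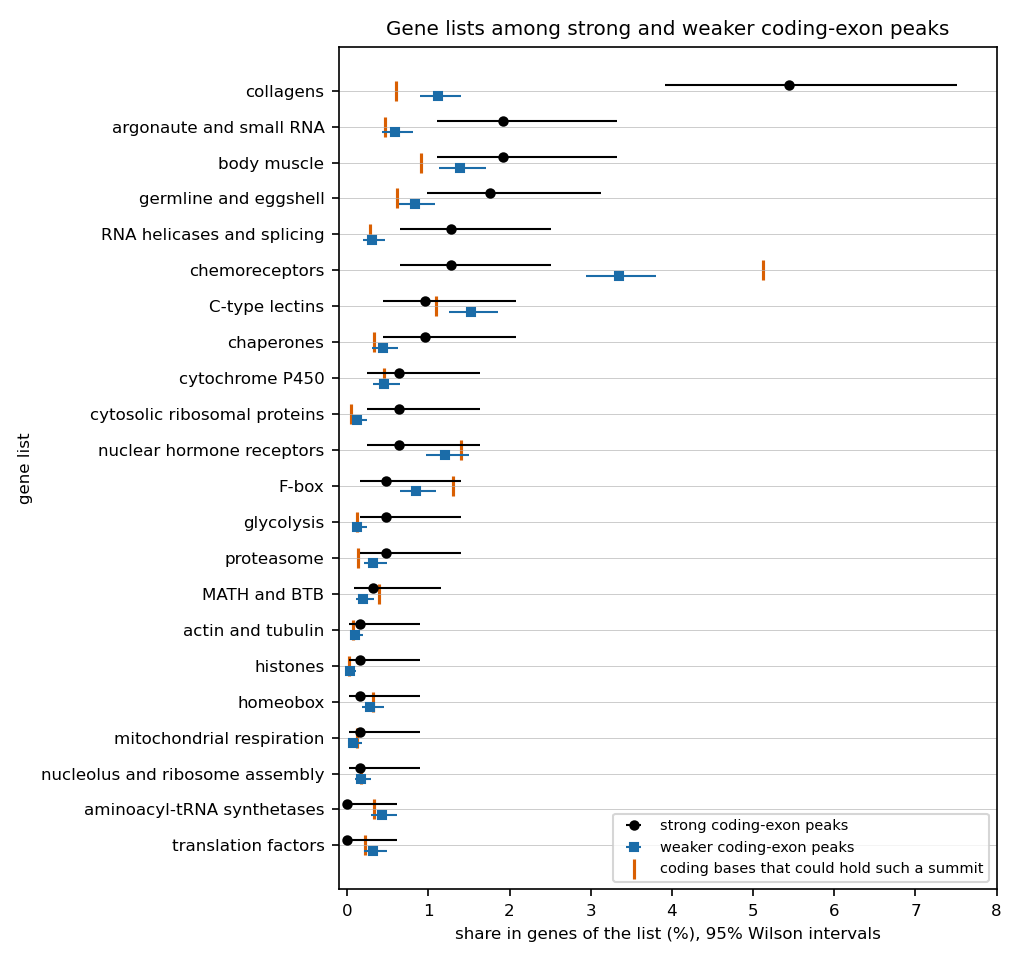
Share of strong coding-exon peaks (circles) and weaker ones (squares) in genes of each list, with 95% Wilson intervals, and the list's share of the coding bases that met the distances (vertical ticks). Collagens stand at 5.44% of strong and 1.12% of weaker peaks, chemoreceptors at 1.28% and 3.34%.

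Host genes of members used more of the codons preferred by ribosomal protein genes. This was measured as a codon adaptation index, which runs up to 1 for a gene that uses only the most frequent codons of the 82 ribosomal protein genes, and which is higher in genes with abundant transcripts in many organisms. The median was 0.285 over 583 genes with members, against 0.256 over 4225 genes holding only weaker peaks and 0.249 over all 15581 eligible genes. Above the upper quartile of all eligible genes, 0.293, lay 267 of the 583 (45.8%, interval 41.8 to 49.9%). Without the collagens, whose median was 0.490, the median was 0.282 over 549 genes. Expression was not measured, and its part in the signal was not tested. Among genes with members, 44 (7.55%, interval 5.67 to 9.98%) also had a strong peak within 500 bp of their 5′ end, against 4.64% of genes holding only weaker peaks and 3.78% of all autosomal protein-coding genes. Another coding-exon peak of any rank was present in 300 of the 583 genes (51.5%).

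Members lay in exons of greater median length than weaker peaks did. Peaks were placed on the longest coding sequence that holds the summit, but coding bases on the longest of each gene. Shares of peaks and of coding bases by exon or position are therefore not strictly alike. The exon at the summit had a median length of 435 bp, against 363 bp for weaker peaks and 290 bp for the exon at a median eligible coding base. Exons of 500 bp or longer held 42.9% of members, against 35.4% of weaker peaks and 27.5% of coding bases. Summits were a median of 115 bp from the nearer exon edge, against 88 bp for weaker peaks. The last coding exon held 132 members (21.1%, interval 18.1 to 24.5%), against 16.1% of weaker peaks and 16.8% of coding bases. Collagen members such as col-120, col-2 and dpy-17 are among these, and the share was not computed without collagens. The first coding exon held 25 members (4%), against 2.30% of weaker peaks and 1.78% of coding bases. Along the coding sequence the median position was 60.4%, against 58.5% for weaker peaks. The tenth from 70 to 80% held 16% of members, the largest share of the 10, against 12.8% of weaker peaks and 12.2% of coding bases. The tenth from 60 to 70% held 10.6%, against 13.3% of weaker peaks and 12.2% of coding bases, and the stretch from 90% to the end held 9.60%, against 9.65% and 11.3%. The median distance to the gene's own 5′ end was 2022 bp, against 2066 bp for weaker peaks. Other annotated genes rarely overlapped a member's summit: 5 lay in a gene annotated as ncRNA, and none in a piRNA, lincRNA, antisense RNA or pseudogene.

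Members had a GC-rich centre. Within 50 bp of the summit the median GC content was 47.5% (95% interval of the median 46.5 to 48.5%), against 43.6% for weaker peaks and 40.6% for all eligible coding windows. In windows centred 400 bp to either side of the members it was 39.6%. A higher GC content at the summit than at the flanks was found in 520 of 625 members (83.2%), against 77.1% of weaker peaks. The rule held each summit to a coding exon, whereas flanking windows, here and below, could lie outside exons. Ordinary coding windows were not compared with their flanks, so this difference cannot be told apart from that between exons and their surroundings. Strong intron peaks had 46.5% and strong promoter peaks 45.5% at the summit, so a raised centre was not particular to coding exons. All of the 25 highest members exceeded their flanks, with a median of 53.5%. Without the collagens the members' median was again 47.5%. The part of base composition in the signal was not tested.

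**Figure D4:**
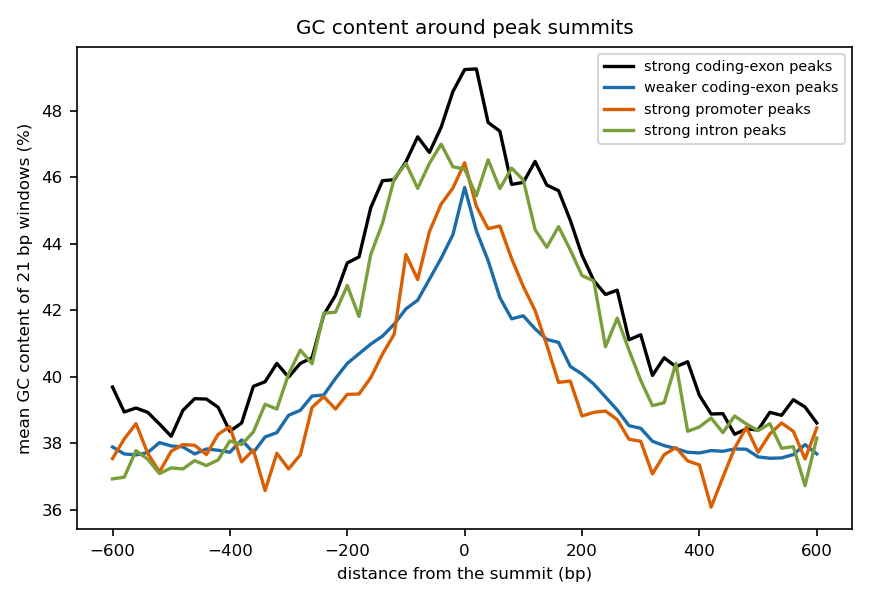
Mean GC content of 21 bp windows (vertical, in percent) by distance from the summit (horizontal, in bp) for strong coding-exon, weaker coding-exon, strong promoter and strong intron peaks. All 4 curves peak near the summit, and the strong coding-exon curve is the highest there.

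Sequence content moved with rank. GC content at the summit had a median of 53.5% for ranks 1 to 500 (52 members), 47.5% in each later part of the members, 45.5% for ranks 3001 to 6000 and 43.6% for ranks 12001 to 30000. Glycine codons made up 13.5% of the codons in the windows of ranks 1 to 500, 10.7% for ranks 501 to 1000, 8.71% for ranks 1001 to 2000 and 7.21% for ranks 2001 to 3000. Proline codons followed the same order, at 12%, 9.59%, 7.80% and 7.04%. Collagens held 9.62%, 10.9%, 5% and 3.07% of the peaks in these classes, and the values by rank were not computed without them. Over all members, glycine was 8.79% and proline 8.11% of 19277 codons, against 6.38% and 5.77% in weaker peaks and 5.35% and 4.87% in whole coding sequences. In collagen members they were 29.5% and 25.2%. Outside the collagen list members had 7.53% glycine and 7.07% proline, against 6.14% and 5.60% in weaker peaks outside the list. Serine, by comparison, was 8.11% of codons in members and 8.04% in weaker peaks.

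**Figure D5:**
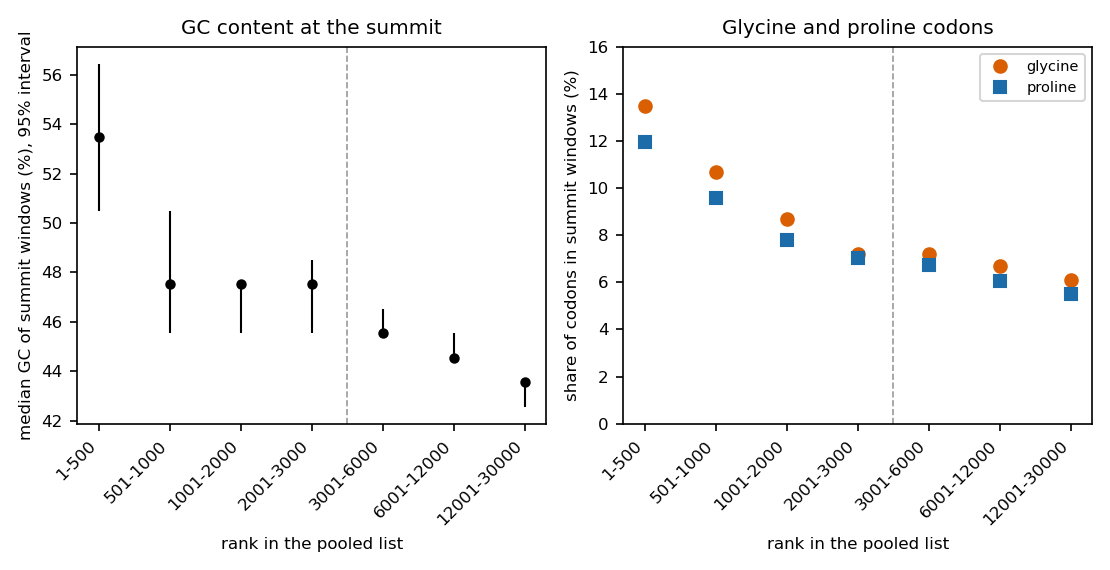
Median GC content at the summit with its 95% interval (left) and share of glycine and proline codons (right) in 101 bp windows of coding-exon peaks, by rank in the pooled list; the dashed line is rank 3000. GC is 53.5% and glycine codons 13.5% for ranks 1 to 500, against 43.6% and 6.11% in the lowest class.

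Each hexamer marked in the printed sequences contains the letters CCA or GGA. Read in frame, CCA encodes proline and GGA glycine, the most used codons of both in C. elegans. Hexamers were counted in any frame and on either strand, and the reading frame of a match was not checked. CCACCA occurred on either strand in 16% of member windows, against 9.27% of weaker peaks, 6.56% of flanking windows and 7.31% of all 326365 eligible coding windows. CCAGGA occurred in 13.1%, against 6.49% of weaker peaks and 4.87% of coding windows. GGAGCC occurred in 11%, CACCAG in 10.9% and GGACCA in 9.92%, against 5.78%, 5.98% and 4.90% of weaker peaks. CCACCA and CACCAG overlap by 5 letters, so their counts are not independent. The coding strand carried CCAGGA in 66 members and the other strand in 19. Collagens held much of this, since 31 of the 34 collagen members had CCAGGA; outside the collagens it was in 8.63% of members, against 5.65% of weaker peaks. CCACCA outside the collagens was in 14% of members, against 8.89% of weaker peaks. In strong intron and promoter peaks CCAGGA was less common, at 3.03% and 3.37%.

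A further 4 hexamers, ACGCAG with AGAGCG and GAACCC with AAAAAA, were searched on both strands since earlier results of the whole series had raised them. ACGCAG was in 2.88% of members (18 of 625, interval 1.83 to 4.51%), against 1.79% of weaker peaks, 2.40% of flanking windows and 1.88% of coding windows. Strong promoter peaks had it in 7.42% and strong intron peaks in 7.16%. AGAGCG was in 1.92% of members, against 1.59% of weaker peaks, 6.07% of strong promoter peaks and 5.23% of strong intron peaks. GAACCC, which occurs in the internal promoter of tRNA genes, was in 2.08% of members and 2.03% of weaker peaks. The run AAAAAA was in 5.76% of members, against 9.02% of weaker peaks, 29.8% of flanking windows and 15.3% of coding windows. A match says only that the letters are in the window.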

How the data were processed

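ChIP-seq of GFP-tagged F57A8.1 was measured in 2 biological replicates of 1 group of young adult worms. The authors deposited a signal value for each peak (its enrichment over a control) in 4 peak lists in ce11 coordinates, per the deposited file descriptions: 1 list per replicate, 1 for both alignments pooled, and 1 thresholded on the irreproducible discovery rate. The −log10 q values that the authors deposited beside it were left aside. The aligner, the peak caller, the scaling and the nature of the control were not given in the sources used here, and read depth is unknown.

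Peaks were ranked by signal and placed on Ensembl release 115 (WBcel235) by their 1-based summit. The longest coding sequence that holds the summit set a peak's exon number and its position along the coding sequence. Coding bases were placed on the longest coding sequence of each gene. Protein-coding 5′ ends were taken at gene level. Summits within 100 bp counted as shared. Composition and hexamers were read from 101 bp windows of the RefSeq genome, with flanks centred 400 bp away and eligible coding windows centred on every 50th base that met the rule's distances. Hexamers and Wilson intervals (95%) were computed with Python 3.11.15, numpy 2.4.6, pandas 2.3.3 and scipy 1.17.1. The steps were tested on simulated data. No test across peaks was run. The members, gene lists, hexamers and naming rule were chosen with earlier results of these data known. Genes were named by rule: those of the 25 highest members, with 3 or more members, up to 4 per list by signal, members on the thresholded list, the 5 largest rank differences in each direction, and 3 peaks to either side of the limit. The 10 collagen genes shared by both replicates' lists were named after their values were seen. Alternatives were other rank limits, distances, windows, annotations and each replicate's own list.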

Additional observations from a re-analysis of the deposited data

How the results depend on the processing

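The alternatives were compared with the 95% interval of the value given, or with 1.5 times a count; 56 of 100 stayed within that limit and 44 did not. Several alternatives, including all of the collagen share, were chosen after seeing the data. With a rank limit of 1500 the rule gave 263 members in 256 genes, of which 75.7% had a summit in both replicate lists, 7.98% lay in collagens, 27.8% in the last coding exon and 3.04% held AAAAAA, and their median GC content was 49.5%. Summits counted as shared within 50 bp gave 45.1% in both lists, within 200 bp 88.3%, and in the 3000 highest of each replicate 8.16%. Above 1000 bp from 5′ ends, collagens were 1.80% of members, where by construction fewer collagen bases remain. In the replicates' own lists the collagen share ran from 3.22 to 6.15%. In replicate 1's own list CCAGGA was in 9.52% of strong peaks, GGAGCC in 8.64% and GGACCA in 6.74%, each below the interval of the pooled value. Glycine and proline codons together were 14.7% there, against 16.9% in the members. Windows of 25 bp to either side gave a median GC content of 49.0% and shares of 1.44% for ACGCAG, 0.640% for AGAGCG, 0.960% for GAACCC and 2.24% for AAAAAA, and windows of 100 bp gave 5.44%, 4%, 4.48% and 16.3%, where window length sets how many letters are searched. The cause of the other shifts was not tested. Counting the 5′ ends of every transcript left 568 members in 533 genes, RefSeq's annotation gave 642 with 579 shared genes, and the peak midpoint 627. Outside the collagens the post hoc hexamers CCAGGA and GGACCA and CACCAG were at 8.63%, 6.26% and 7.61% of members.

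No paired analysis was possible because the design holds 1 group. With 2 replicates, whose own rule lists share 6.30% of replicate 1's positions, single members are uncertain, and the read depth is unknown.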
